A study of Mus musculus with 50 samples.

Results

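Liver tumours that arose spontaneously in mice on the ALIOS diet were compared with non-tumour livers of mice on the same diet. The ALIOS diet is an American lifestyle diet, rich in fat and trans-fat and given with fructose in the drinking water. The comparison held 12 tumours (T2 to T6 and T8 to T14) and 11 non-tumour livers (N13 to N23), which is 23 of the 50 libraries of the series. Libraries were chosen by their labels, as tumour or non-tumour tissue of mice on the ALIOS diet without the liver carcinogen DEN (diethylnitrosamine), with 1 exception made on expression. All 23 came from C3H/He mice harvested at 48 weeks, a strain prone to liver tumours; the study's methods name males for the pilot feeding experiment, and the labels give no sex. The labels name no engineered allele and no drug for either group, and diet, strain and harvest time were the same on both sides. The study also fed the antioxidant bucillamine to parallel groups of mice until 48 weeks, and the labels do not mention it. Tumour T1 carries the same label and was left out because its library held kidney transcripts, and T7 was not used because its mouse ate the control diet. Each library was made from a piece of whole tissue, which holds hepatocytes, tumour cells, vessels and immune cells together. The labels do not say which tumours and livers came from the same mouse, so the p-values below measure the spread between these pieces of tissue, some of which may share an animal. Between 27602194 and 34682875 reads were counted per liver and between 23798251 and 38199013 per tumour.

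Adult hepatocytes divide their work along the axis from the portal to the central vein: periportal cells make urea and glucose, and pericentral cells make glutamine and hold most of the drug-metabolising cytochromes P450, under the control of beta-catenin. Hepatocellular carcinoma is known for the return of fetal liver proteins such as alpha-fetoprotein and for the loss of these adult functions. In mice of the C3H strains, liver tumours often carry mutations that activate the Ras and MAP kinase pathway. The levels below are reads per 1000000 counted reads (CPM), scaled between libraries by the TMM method, and differences are log2 fold changes of tumour over liver with their standard error (SE). Every adjusted p below is Benjamini-Hochberg adjusted over all genes tested, from the quasi-likelihood test of edgeR, and a gene was called where it was under 0.05.

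Of 14183 genes tested, 3812 were higher and 3675 lower in tumours. That is 26.9% and 25.9% of the genes tested, so a gene list has to be read against a background in which about 52.8% of genes were called. The lists and their members were chosen with earlier results of these data known. A share above this background may therefore come in part from that choice, and the counts describe the lists without testing them. At least a 2-fold difference was seen for 1249 of the higher and 741 of the lower genes, and the median log2 fold change of all genes was 0.01. Every tumour lay above every liver for 185 genes (1.3%) and below every liver for 452 (3.19%). With library totals alone in place of TMM scaling, the same genes moved up by 0.18 on the log2 scale at the median, and the calls split into 5526 higher and 2059 lower, 72.9% higher in place of 50.9%. Both shares therefore depend on the scaling, and the called genes named below differ by more than that shift unless stated. Of 209 genes chosen by rule for naming, 12 still lost their call with library totals alone, and 1 gained it.

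The tumours were not alike. For each library in turn, genes were called at 2-fold or more in a fit without it, and the share of those genes for which that library lay beyond all other livers was counted. For the rising genes the share ranged from 28% to 89.1% in the tumours, with a median of 81%, and from 2.88% to 40.7% in the livers, with a median of 6.62%. T2 had the lowest share at 28%, followed by T6 at 46.6%, T5 at 66.8% and T3 at 71.7%, and the other 8 tumours had 77.2% to 89.1%. Among the livers, N17 stood out with 40.7%, a higher share than that of T2. The labels of T2 and T6 as tumours were kept, and the results that lead the text were also computed without both.

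**Figure D1:**
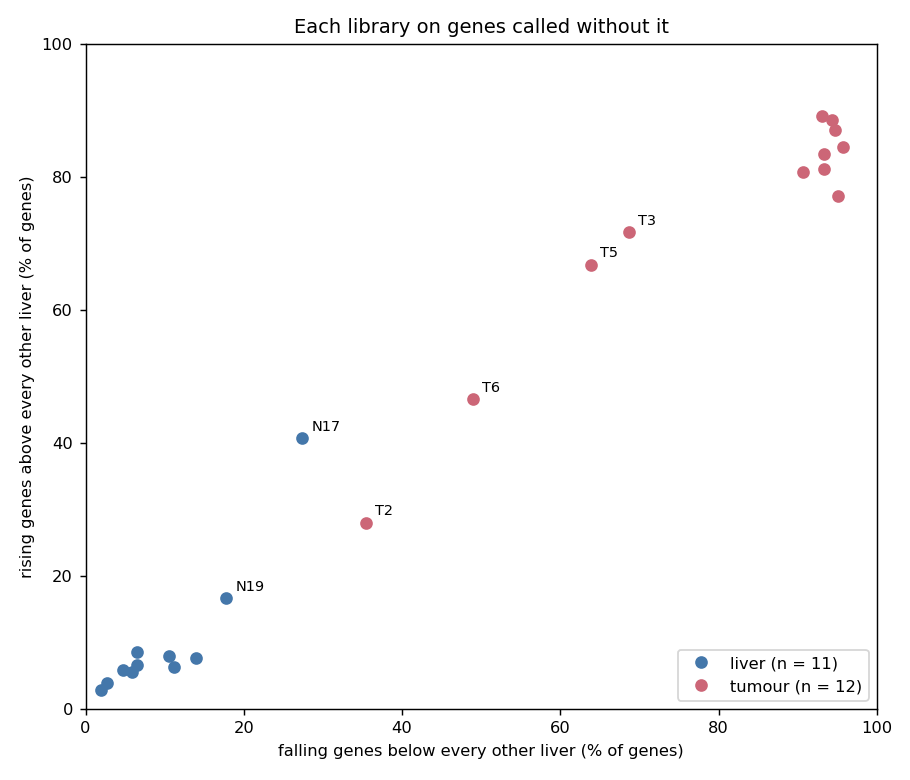
Share of falling genes for which a library lay below every other liver (x axis, %) against the share of rising genes for which it lay above every other liver (y axis, %), each on the genes called at 2-fold or more in the fit without that library. Points are the 11 livers and 12 tumours; T2 and T6 lie between the livers and the other tumours, and N17 lies nearest to them among the livers.

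Markers of the kidney and the hepatocyte were checked in every library. The 8 kidney genes summed to 0.413 to 24.7 CPM in the tumours and 0.26 to 7.11 CPM in the livers, against 30082 CPM in T1. The highest tumour sum, in T9, was mostly Slc12a1, a salt transporter, at 22.5 CPM. Kap, a protein of the kidney's proximal tubule, was at 1.64 CPM in T2 and 2.03 to 4.6 CPM in N21, N22 and N23, and at most 0.198 CPM in the other 19 libraries. The hepatocyte marker Alb, serum albumin, was at 52263 CPM or more in every tumour used. The livers had 46350.3 to 102606 CPM (median 74592).

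Fetal liver and liver tumour markers rose, with the largest median of the lists that had 8 or more tested members. Of 19 oncofetal markers tested, 15 rose and 1 fell, with a median log2 fold change of 4.08 against 0.01 for all genes. Afp (ENSMUSG00000054932.4, chromosome 5, 90490737 to 90508907, plus strand of mm10) encodes alpha-fetoprotein, the main serum protein of the fetal liver, and had 0.39 to 1.27 CPM (median 0.905) in the livers and 3.47 to 496 CPM (median 301) in the tumours. The groups did not overlap, and its log2 fold change was 8.18 ± 0.67 (adjusted p = 3.03e-08). T2 and T6 were the lowest tumours, at 3.47 and 4.91 CPM, and the next was T5 at 102 CPM. Gpc3 (ENSMUSG00000055653.11, chromosome X, 52272426 to 52613950, minus strand), the cell surface proteoglycan glypican-3, had 0.13 to 1.05 CPM (median 0.75) in the livers and 2.13 to 374 CPM (median 122) in the tumours. Again every tumour lay above every liver, the nearest being T2 and T6 at 2.13 and 2.79 CPM, and the log2 fold change was 7.61 ± 0.70 (adjusted p = 6.36e-08). Igdcc4 (ENSMUSG00000032816.12, chromosome 9, 65101486 to 65137940, plus strand), a cell surface protein also called Nope and known from fetal liver, had 0.0367 to 0.422 CPM (median 0.155) in the livers and 0.187 to 79.8 CPM (median 51.4) in the tumours. Only T2 lay among the livers, and the log2 fold change was 7.85 ± 0.72.

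Other markers of this list rose too. Prom1, a membrane protein of progenitor cells, had 0.316 to 2.76 CPM (median 0.73) in the livers and 1.91 to 57.3 CPM (median 24.6) in the tumours, with 11 of 12 tumours above the highest liver. Tspan8, Tff3, Spink1 and Golm1 were chosen for mention after their values were seen, and rose by 6.01, 5.60, 4.47 and 3.82 on the log2 scale; Tff3 is a secreted mucosal peptide and Golm1 a Golgi protein. Sall4, a transcription factor of embryonic liver, went the other way and fell by 1.83 on the log2 scale, with 0.579 to 4.41 CPM (median 1.58) in the livers and 0 to 2.13 CPM (median 0.102) in the tumours. Epcam, Igf2bp2 and Abcc4 did not pass the test, at 0.04, -0.06 and 0.59. Igf2, the fetal growth factor, was called at 1.90 ± 0.63, but its medians were 0.348 CPM in livers and 0.392 CPM in tumours: T2 and T3 had 6.28 and 5.65 CPM, and the other 10 tumours 0.19 to 1.11 CPM. A fold change here compares group means, so a few high tumours can move it further than the medians do.

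**Figure D2:**
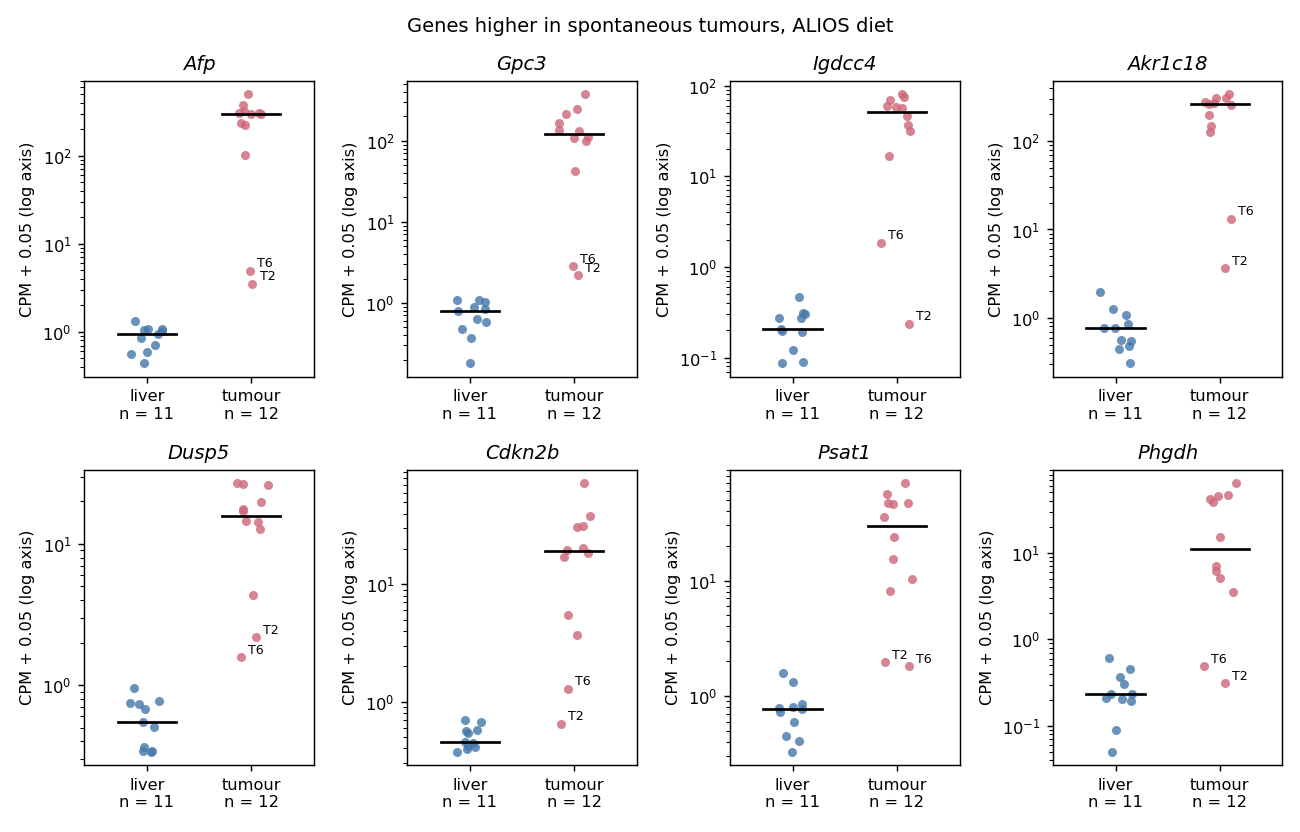
Levels of 8 genes higher in tumours, as CPM plus 0.05 on a log axis, in 11 livers and 12 tumours; each point is a library and the bar is the group median. T2 and T6 are named; in Afp, Gpc3, Akr1c18, Dusp5 and Psat1 every tumour lies above every liver, and T2 and T6 are the tumours nearest to the livers.

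Among genes with a mean of at least 5 CPM in the tumours and no overlap between the groups, the 10 protein-coding genes with the largest change were Afp, Akr1c18, Gpc3, Cacna1c, Vmn2r3, Msantd3, Bmp8b, Psat1, Dusp5 and Adamtsl5. Akr1c18 (ENSMUSG00000021214.11, chromosome 13, 4132615 to 4150654, minus strand), an aldo-keto reductase that inactivates progesterone, had 0.257 to 1.9 CPM (median 0.713) in the livers and 3.59 to 336 CPM (median 259) in the tumours, a log2 fold change of 8.01 ± 0.63. Cacna1c, the pore of an L-type calcium channel, had 0 to 0.26 CPM (median 0.109) in the livers and 0.411 to 21.3 CPM (median 7.32) in the tumours. The ligand Bmp8b, of the BMP family, rose, with 0 to 0.442 CPM (median 0.13) in the livers and 0.747 to 26.6 CPM (median 4.66) in the tumours; its exons overlap Ppie, and without a stated strand option reads of the pair cannot be told apart. Vmn2r3 is named as a vomeronasal receptor and was uneven, with 47.8 CPM in T13 and 0.299 to 7.06 CPM in the other 11 tumours, against at most 0.217 CPM in any liver. Msantd3 had 0.031 to 0.217 CPM (median 0.147) in the livers and 0.448 to 11.8 CPM (median 8.35) in the tumours. Adamtsl5 had 0.55 to 1.14 CPM (median 0.773) in the livers and 1.2 to 48.2 CPM (median 20.5) in the tumours. T2 was the lowest tumour for 8 of these 10 genes and T6 for the other two.

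Most genes of mitosis rose, and most genes of S phase were not called. Of 27 mitosis genes tested 22 rose and 0 fell (median 1.30), whereas of 20 S phase genes 3 rose and 3 fell (median -0.07). Mki67, the proliferation antigen Ki-67, had 0.989 to 10.5 CPM (median 1.81) in the livers and 5.27 to 38.2 CPM (median 8.93) in the tumours, a log2 fold change of 1.91 ± 0.41 (adjusted p = 0.000443). The groups overlapped, since N19 reached 10.5 CPM, and T4, T8, T13 and T14 exceeded it; T4 was highest. The kinase gene Bub1 of the spindle checkpoint rose by 1.91 ± 0.42 with 10 tumours above the highest liver, the cyclin gene Ccna2 by 1.55 ± 0.36 and the transcription factor gene Foxm1 by 1.30 ± 0.28. Cdk1, the mitotic kinase itself, did not pass the test at 0.72 ± 0.39. In S phase, Ccne1, a cyclin of the entry into DNA synthesis, rose, with 1.25 to 2.11 CPM (median 1.58) in the livers and 1.5 to 16.9 CPM (median 7.64) in the tumours, above the highest liver in 10 tumours. Its paralogue Ccne2 fell by 1.02 and Tk1, thymidine kinase, by 1.24 on the log2 scale. Ccne2 and Tk1 overlap Ints8 and Afmid. Pcna fell by 0.46, a call lost with library totals alone. The 6 Mcm helicase genes were not called, with log2 fold changes from -0.36 to 0.63.

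Most inhibitors of the cell cycle rose. Of 10 tested 6 rose and 1 fell. Cdkn2b (ENSMUSG00000073802.4, chromosome 4, 89306299 to 89311039, minus strand), which encodes the CDK4 inhibitor p15, had 0.321 to 0.651 CPM (median 0.403) in the livers and 0.598 to 72.9 CPM (median 19.1) in the tumours and rose by 5.53 ± 0.62, with only T2 within the range of the livers. Its neighbour Cdkn2a (ENSMUSG00000044303.6, chromosome 4, 89274471 to 89294653, minus strand), the gene of p16 and p19Arf, rose by 4.66 ± 0.74: T11 had 42.3 CPM, while T2, T5 and T6, at 0.56, 0.394 and 0.232 CPM, did not exceed the livers. Cdkn1a, the p53 target p21, rose, with 1.36 to 10.6 CPM (median 2.88) in the livers and 4.74 to 174 CPM (median 39) in the tumours, with T11 again highest. Btg2, an antiproliferative p53 target, rose by 2.57 ± 0.30. Trp53 itself rose by 0.66 ± 0.08, with 11 tumours above the highest liver. Cdkn2d fell by 0.61, and that call was lost with library totals alone and with T1 included.

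Targets of p53 formed a list of 23 tested genes, of which 16 rose and 3 fell (median 1.10). It shares members with other lists: Btg2 was also counted among the inhibitors above, and Sesn2 in the integrated stress response below. Phlda3, an inhibitor of AKT, had 0.214 to 1.3 CPM (median 0.55) in the livers and 1.01 to 35.5 CPM (median 9.85) in the tumours. The death receptor gene Tnfrsf10b had 0.214 to 1.33 CPM (median 0.558) in the livers and 0.56 to 22.5 CPM (median 8.31) in the tumours, with 11 of 12 tumours above the livers. Mdm2, the ubiquitin ligase that limits p53, and Sesn2, a stress-responsive regulator of mTORC1, had every tumour above every liver at log2 fold changes of 1.14 ± 0.20 and 1.45 ± 0.21; Mdm2 was chosen after its values were seen. Sesn1 fell by 0.44 on the log2 scale with 10 tumours below the lowest liver, and Bbc3, Pmaip1, Perp and Plk3 were not called.

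Most output genes of the MAP kinase pathway rose, a list that holds feedback inhibitors and transcription factors. Of 18 tested, 14 rose and 1 fell (median 1.07). Dusp5 (ENSMUSG00000034765.6, chromosome 19, 53529109 to 53542431, plus strand), a nuclear phosphatase that dephosphorylates ERK, had 0.286 to 0.909 CPM (median 0.499) in the livers and 1.52 to 26.9 CPM (median 15.8) in the tumours and rose by 4.81 ± 0.44 (adjusted p = 6.17e-08) without overlap. Etv4, an ETS transcription factor, had 0.065 to 0.357 CPM (median 0.143) in the livers and 0.187 to 4.88 CPM (median 2.32) in the tumours, and 11 tumours lay above every liver. The receptor kinase inhibitors Spry1 and Spry2 rose by 1.99 ± 0.26 and 2.47 ± 0.31, both with 10 tumours above the livers. T2 and T6 were the only 2 tumours within the liver range for Spry2. Dusp6 and Egr1, chosen after their values were seen, rose by 1.64 ± 0.22 and 3.43 ± 0.52. Etv1 fell by 0.64 from a median of 0.606 CPM, and this low-level call did not hold in several alternatives. Hras, the gene of a Ras protein, did not pass the test at 0.30 ± 0.17 (adjusted p = 0.142): the livers had 23.7 to 34.9 CPM (median 27.8) and the tumours 20.2 to 60.9 CPM (median 29.8). T2, T3, T8, T10 and T14 exceeded the highest liver, and T5, T6 and T9 lay below the lowest.

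Among 20 growth factor receptors and ligands 9 rose and 3 fell. The receptor gene Fgfr2 rose, with 28.7 to 43.9 CPM (median 37.9) in the livers and 33.8 to 267 CPM (median 142) in the tumours, and Hbegf, a ligand of the EGF receptor, rose by 2.02 ± 0.34. Tgfa and Btc, other ligands of that receptor, rose by 0.95 and 0.90. The receptor gene Egfr fell: it had 71.4 to 607 CPM (median 260.1) in the livers and 31.5 to 130.2 CPM (median 65.1) in the tumours, a log2 fold change of -2.04 ± 0.36 with 7 tumours below the lowest liver. Met, the receptor of hepatocyte growth factor, fell by 0.50, and its ligand Hgf was not called at -0.47 ± 0.29.

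Genes of serine synthesis and the integrated stress response rose. The integrated stress response is a programme in which cells short of amino acids or with unfolded proteins make the transcription factor ATF4, which induces genes of amino acid synthesis and import. Of 19 genes tested 16 rose and 1 fell, with a median of 1.49. ATF4 is known to act with C/EBP proteins at a composite element, and the letters TGATGNAA, searched on both strands, stand in for it here. They occurred in 7 of the 20 genes of the list (RefSeq promoter windows of GRCm38.p6, 250 bases before to 50 after the start site), and in 4.51% of all 27025 genes with a window (3.97% of windows). A match of letters is a description and not a binding site. The list was chosen as genes of this programme, so the difference between these shares says nothing about the tumours. The 7 were Asns, Atf3, Chac1, Fgf21, Nupr1, Slc7a11 and Trib3. Chac1 had a log2 fold change of only 0.12, and Slc7a11 was not among the genes tested. The windows of Phgdh, Psat1 and Psph held no such letters. The 150 bases before the start site are shown for 4 genes of the list that rose, with the match in capitals, 5′ to 3′ on the gene's strand, the minus strand in all 4. They lie at chr6:7693210-7693359 (Asns), chr7:126625471-126625620 (Nupr1), chr1:191183334-191183483 (Atf3) and chr7:45615491-45615640 (Fgf21), and the Asns match is on the strand of the gene while the other 3 are on the opposite strand.
Asns: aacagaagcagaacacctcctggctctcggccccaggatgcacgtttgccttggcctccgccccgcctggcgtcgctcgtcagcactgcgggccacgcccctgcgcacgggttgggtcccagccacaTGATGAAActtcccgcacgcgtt
Nupr1: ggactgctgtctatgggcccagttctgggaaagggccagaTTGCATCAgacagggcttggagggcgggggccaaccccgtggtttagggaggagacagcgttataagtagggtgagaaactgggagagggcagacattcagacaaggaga
Atf3: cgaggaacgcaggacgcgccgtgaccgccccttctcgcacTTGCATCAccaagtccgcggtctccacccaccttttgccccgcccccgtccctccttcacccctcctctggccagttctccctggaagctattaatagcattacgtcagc
Fgf21: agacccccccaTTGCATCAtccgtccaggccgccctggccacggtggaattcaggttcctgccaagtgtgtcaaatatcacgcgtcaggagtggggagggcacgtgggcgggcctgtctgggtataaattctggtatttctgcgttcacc

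Psat1 (ENSMUSG00000024640.7, chromosome 19, 15904678 to 15947337, minus strand) and Phgdh (ENSMUSG00000053398.9, chromosome 3, 98313170 to 98339990, minus strand), the enzymes of serine synthesis from glycolysis, led the list. Psat1 had 0.277 to 1.53 CPM (median 0.715) in the livers and 1.76 to 69.7 CPM (median 29.6) in the tumours without overlap, a log2 fold change of 5.29 ± 0.57 (adjusted p = 2.31e-07). Phgdh had 0 to 0.552 CPM (median 0.181) in the livers and 0.262 to 63.9 CPM (median 11.1) in the tumours, a log2 fold change of 6.61 ± 0.83. T2 and T6 lay among the livers, and T9, T10, T11, T12 and T13 had 38.7 to 63.9 CPM. Psph, the last enzyme of the pathway, rose by 1.65 ± 0.21; it overlaps Cct6a. Asns (ENSMUSG00000029752.10, chromosome 6, 7675169 to 7693254, minus strand), asparagine synthetase, was split in the same way: T9 to T13 had 18.2 to 67.8 CPM and the other 7 tumours 0.299 to 3.45 CPM, against 0.217 to 0.701 CPM (median 0.422) in the livers. Its log2 fold change of 5.16 ± 0.81 follows the mean of the 12. Nupr1, a stress-induced chromatin protein, had 0.593 to 2.86 CPM (median 1.88) in the livers and 4 to 31.9 CPM (median 12) in the tumours, without overlap. The pseudokinase gene Trib3 rose by 2.94 ± 0.40, and Atf4, whose protein is mainly regulated in translation, rose by 0.52 ± 0.10. Shmt2, the mitochondrial enzyme that turns serine into glycine, fell by 0.95 on the log2 scale with all 12 tumours below every liver. Asns, Trib3 and Atf4 were chosen for mention with their values known. The unfolded protein response of the endoplasmic reticulum had 3 genes higher and 3 lower of 15, with Xbp1 at 0.68 ± 0.19 and its chaperone Hspa5 not called at 0.11 ± 0.21.

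The pericentral programme of the hepatocyte fell throughout its list. All 14 pericentral genes tested fell, with a median of -2.35, and 5 of them had every tumour below every liver. In whole tissue, fewer cells of a type and less RNA per cell cannot be told apart. Cyp2e1 (ENSMUSG00000025479.8, chromosome 7, 140763739 to 140774987, plus strand), the cytochrome P450 that oxidises ethanol, had 3286 to 8332 CPM (median 5600.2) in the livers and 4.81 to 2667 CPM (median 261) in the tumours, a log2 fold change of -2.97 ± 0.70 (adjusted p = 0.00109). T2, T3, T5 and T6 kept 1474 to 2667 CPM, and T13 had 4.81 CPM. Cyp1a2, which metabolises caffeine, had 238 to 777 CPM (median 594) in the livers and 0.263 to 213 CPM (median 14.1) in the tumours, also without overlap. Mup17, a major urinary protein, fell, with 64.9 to 1091 CPM (median 359.9) in the livers and 0.246 to 52.8 CPM (median 5.19) in the tumours; the table lists it under the symbol of a neighbouring paralogue, and near-identical Mup genes may share reads. Gulo, the last enzyme of vitamin C synthesis, fell by 1.45 on the log2 scale. Without T2 and T6 the list's median was -3.11.

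Targets of beta-catenin gave a more uneven result. Of 13 tested 5 fell and 1 rose; without T2, or without T2 and T6, 8 fell. Glul (ENSMUSG00000026473.13, chromosome 1, 153899944 to 153909723, plus strand), glutamine synthetase of the last pericentral cell row, had 515 to 1312 CPM (median 967) in the livers and 11.5 to 1224 CPM (median 69.2) in the tumours and a log2 fold change of -1.79 ± 0.64 (adjusted p = 0.0212). T2 and T6, at 1224 and 849 CPM, lay within the liver range, T3 and T5 had 507 and 337 CPM, and the other 8 had 11.5 to 143 CPM. The glutamate transporter gene Slc1a2 had 25 to 77.5 CPM (median 47.9) in the livers and 0.0922 to 51.4 CPM (median 1.38) in the tumours, and T2 and T5 were within the liver range for this gene. Axin2, the feedback inhibitor of the pathway, fell by 1.45, and Tbx3, a T-box repressor, by 1.57 on the log2 scale. Lgr5, Sp5 and Nkd1 did not pass the test, at -0.95 ± 0.43, -0.78 ± 0.66 and -0.50 ± 0.46. Tcf7 rose by 0.87 ± 0.18, above the highest liver in 11 tumours. In no tumour did Glul exceed the highest liver, which had 1312 CPM.

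**Figure D3:**
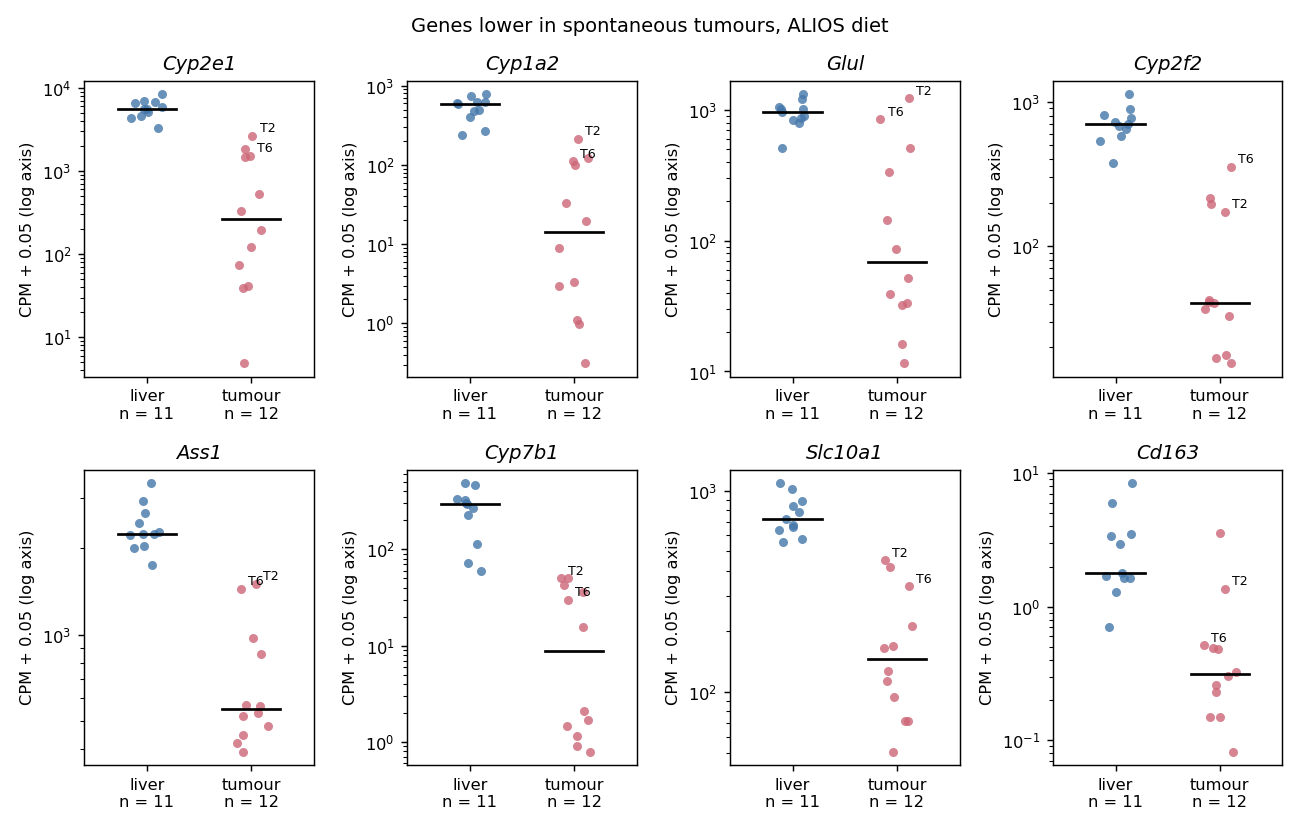
Levels of 8 genes lower in tumours, as CPM plus 0.05 on a log axis, in 11 livers and 12 tumours; each point is a library and the bar is the group median. T2 and T6 are named; they are within the liver range for Glul and below it for Cyp2e1, Cyp1a2, Cyp2f2, Ass1, Cyp7b1 and Slc10a1, in which the groups do not overlap.

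Periportal genes fell less evenly. Of 15 tested 9 fell and 4 rose (median -0.72). Cyp2f2, a periportal cytochrome P450, had 373 to 1119 CPM (median 704) in the livers and 15.4 to 352 CPM (median 40.6) in the tumours, and Ass1, argininosuccinate synthetase of the urea cycle, had 1754 to 3376 CPM (median 2251) in the livers and 390.4 to 1502 CPM (median 549.9) in the tumours; neither overlapped. Cps1, the first enzyme of that cycle, fell by 1.33 and Pck1, which starts gluconeogenesis, by 1.71 on the log2 scale. Cdh1, E-cadherin, rose by 3.32 ± 0.42, with 6.06 to 21.9 CPM (median 13.5) in the livers and 4.67 to 228 CPM (median 186) in the tumours. T2, at 4.67 CPM, was the single tumour below the livers and the other 11 were above them. The whole list of 39 urea cycle and amino acid breakdown genes had 31 lower and 0 higher (median -0.98). Cth, which makes cysteine from cystathionine, had 290.3 to 467 CPM (median 358) in the livers and 68.8 to 195 CPM (median 112) in the tumours, without overlap. Kmo, of tryptophan breakdown, fell by 0.89. Of the histidine pathway, Hal, Uroc1, Ftcd and Amdhd1 were not called, at -0.25, -0.15, -0.25 and -0.18.

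Most enzymes that clear drugs and steroids fell. Of 35 genes of cytochrome P450 families 1 to 3, 25 fell and 3 rose. Of 23 sulfotransferases, glucuronosyltransferases and related enzymes, 21 fell and 0 rose, and 11 had every tumour below every liver, where 3.19% of all genes did. Cyp2c29, Cyp2c50 and Sult2a8 were among the 10 genes that fell furthest by the same rule, with at least 5 CPM in the livers. Cyp2c29 had 410.1 to 1760.4 CPM (median 1134) in the livers and 2.38 to 402 CPM (median 33.4) in the tumours, Cyp2c50 186 to 679 CPM (median 403) in the livers and 0.23 to 168 CPM (median 7.91) in the tumours, and the sulfotransferase gene Sult2a8 538 to 1419.6 CPM (median 1044) in the livers and 4.55 to 309.5 CPM (median 38.4) in the tumours. The glucuronosyltransferase gene Ugt2b1 fell by 2.43 ± 0.29 and Ugt2a3 by 1.58 ± 0.16 on the log2 scale. The Cyp2c and Ugt families hold close paralogues, whose reads the counting could have split. Of 21 transporters 12 fell and 3 rose: Slc10a1, which takes up bile acids from blood, had 558 to 1089 CPM (median 723) in the livers and 50.3 to 451 CPM (median 146) in the tumours, whereas the efflux pump gene Abcb1a rose by 0.94 ± 0.20. Glutathione enzymes and NRF2 targets had 14 lower and 5 higher of 28. Gclm, the regulatory subunit of glutathione synthesis, fell by 0.60 with no overlap, and G6pdx, of the pentose phosphate pathway, rose by 1.64 ± 0.27; G6pdx overlaps Ikbkg.

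Genes of bile acid synthesis fell. Of 21 genes 16 fell and 0 rose (median -1.10). Cyp7b1, of the alternative pathway, had 59.2 to 486 CPM (median 292) in the livers and 0.737 to 50.3 CPM (median 8.73) in the tumours, a log2 fold change of -3.82 ± 0.73 (adjusted p = 0.000138). Cyp7a1, the rate-limiting enzyme of the classical pathway, had 130.1 to 418 CPM (median 230.3) in the livers and 0.132 to 247 CPM (median 7.33) in the tumours, and Cyp8b1, which sets the share of cholic acid, had 156 to 515 CPM (median 299) in the livers and 1.43 to 245 CPM (median 7.08) in the tumours; both were chosen with their values known. Slc27a5, which joins bile acids to coenzyme A, fell by 1.61. Nr0b2, the nuclear receptor SHP, was not called at -0.02 ± 0.28.

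Most male-biased liver genes fell. Of 22 male-biased genes 19 fell and 0 rose (median -2.31). Of 18 female-biased genes 6 rose and 1 fell (median 0.01). The 33.3% higher was near the 26.9% over all genes, and the 5.56% lower was below the 25.9%. Without T2 and T6, 4 fell and the median was -0.78. With DESeq2 the median was 0.52, so the sign of the median changed with the setting. Mup7, a urinary protein of males, had 9.97 to 746 CPM (median 238) in the livers and 0.0659 to 19.8 CPM (median 1.44) in the tumours, and Elovl3, a fatty acid elongase of males, 8.07 to 52.4 CPM (median 25.9) in the livers and 0 to 7.2 CPM (median 1.07) in the tumours. Mup2, Mup9 and Mup14 were also among the 10 leading genes that fell, at -4.27, -5.33 and -6.36. Cyp2a4, a female-biased steroid hydroxylase, had 56.4 to 1168 CPM (median 211) in the livers and 594 to 7215 CPM (median 3631) in the tumours, with 10 tumours above the livers, and Cyp17a1, of androgen synthesis, had 2.38 to 13.6 CPM (median 4.36) in the livers and 1.88 to 194 CPM (median 68.5) in the tumours. T13 had 7215 CPM of Cyp2a4, the highest value, but 1.88 CPM of Cyp17a1, the lowest. Growth hormone drives much of this sex bias in liver. The receptor gene Ghr fell, with 523 to 716 CPM (median 632) in the livers and 109 to 426 CPM (median 186) in the tumours, and its targets Igf1 and Igfals fell by 1.38 ± 0.24 and 2.32 ± 0.53 on the log2 scale. Igfbp1, a binding protein of IGF that insulin suppresses, rose by 4.30 ± 0.61, to 2084 CPM in T13, while Cish and Socs2, feedback inhibitors induced by growth hormone, were not called at -1.19 ± 0.58 and -0.54 ± 0.34. In all 6 of 13 genes of this axis fell and 3 rose.

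Genes of energy metabolism fell by small amounts. Of 53 nuclear genes of the respiratory chain 47 fell and 0 rose, with log2 fold changes between -0.92 and -0.01 (median -0.60), and 15 had every tumour below every liver. With library totals alone the median was -0.41. Ndufa12, of complex I, had 46.2 to 70.2 CPM (median 55.5) in the livers and 23.6 to 41.5 CPM (median 31.9) in the tumours, and Uqcrc2, of complex III, 276 to 356 CPM (median 314) in the livers and 149 to 251 CPM (median 180.2) in the tumours. Of 33 fatty acid oxidation genes 27 fell and 1 rose. Cpt2, which releases fatty acids inside mitochondria, had 107 to 144 CPM (median 122) in the livers and 47.4 to 97.7 CPM (median 65.6) in the tumours, without overlap, while Cpt1a, the regulated entry step, was not called at -0.14 ± 0.11. The gene that rose was Vnn1, a pantetheinase, at 2.04 ± 0.34. Liver forms of sugar enzymes fell in 11 of 15 genes, with Fbp1, of gluconeogenesis, at -1.08 ± 0.17 and Pygl, liver glycogen phosphorylase, at -1.11 ± 0.16. Of 15 forms typical of other tissues 5 rose and 0 fell, and the 33.3% higher was near the 26.9% over all genes. Pygb, brain glycogen phosphorylase, had 4.17 to 16.9 CPM (median 7.7) in the livers and 9.12 to 83.8 CPM (median 57.6) in the tumours. Pfkp, platelet phosphofructokinase, had 0.998 to 4.09 CPM (median 2.36) in the livers and 1.64 to 65.4 CPM (median 24.7) in the tumours. Each had 11 tumours above the livers. Pfkp overlaps Pitrm1. The pyruvate kinase gene Pkm, counted over all its isoforms, rose by 0.79 ± 0.22, and Hk2 and Slc2a1 were not called at -0.24 ± 0.42 and 0.10 ± 0.11.

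Lipid genes were mixed. Of 23 lipogenic genes 9 fell and 3 rose. Scd2, a fatty acid desaturase of fetal liver and brain, rose, with 7.2 to 103 CPM (median 25.7) in the livers and 34 to 1008 CPM (median 604) in the tumours, in 11 tumours above every liver, whereas the adult liver form Scd1 was not called at -0.48 ± 0.42. Thrsp fell by 1.79 and Dgat2, which makes triglyceride, by 0.73 on the log2 scale, while Fasn, fatty acid synthase, was not called at -0.18 ± 0.28. Of 19 lipid droplet genes 9 rose and 6 fell. Plin2, a droplet coat protein, had 359.8 to 697 CPM (median 461) in the livers and 518 to 1479.7 CPM (median 979) in the tumours, Cidea, a droplet fusion protein, 0.0362 to 1.39 CPM (median 0.198) in the livers and 0.523 to 31 CPM (median 12.2) in the tumours, and Lpl, lipoprotein lipase, 10.7 to 58.9 CPM (median 25.8) in the livers and 30.8 to 254 CPM (median 120.3) in the tumours. Cideb, the form of healthy hepatocytes, fell by 0.77 with all 12 tumours below the livers. Of 24 cholesterol synthesis genes 7 rose and 4 fell, and 11 rose without T2 and T6; Lss, lanosterol synthase, rose by 1.34 ± 0.22 and Ebp fell by 0.78.

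Transcription factors of the hepatocyte fell in part, by small amounts. Of 27 tested 16 fell and 1 rose (median -0.36), and 6 fell with library totals alone. Hnf4a, the main hepatocyte regulator, was not called at 0.00 ± 0.11, with 328 to 545 CPM (median 439) in the livers and 296 to 576 CPM (median 453) in the tumours. Foxa1, Foxa2 and Prox1 were not called either, at -0.05, -0.18 and -0.09. Nr1i3, the xenobiotic receptor CAR, fell, with 116 to 324 CPM (median 203) in the livers and 1.51 to 296 CPM (median 13.3) in the tumours; it overlaps Tomm40l and was picked with its values known. Klf15 and the bile acid receptor gene Nr1h4 fell by 0.79 and 0.71, and Foxa3 rose by 0.56 ± 0.18.

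Of 20 abundant secreted proteins of the plasma 5 rose and 8 fell, 25% and 40%, the first near the share over all genes. Alb rose by 0.79 ± 0.20, with 46350.3 to 102606 CPM (median 74592) in the livers and 52263 to 209418 CPM (median 148411) in the tumours, and Trf, transferrin, by 1.17 ± 0.17, whereas Apoh fell by 0.74 and Rbp4, the retinol carrier, by 0.57 on the log2 scale. Of 25 acute phase genes 14 fell and 3 rose: Saa1, serum amyloid A, had 141 to 2642 CPM (median 887) in the livers and 26.1 to 466 CPM (median 102) in the tumours, and Crp fell by 1.15. The interleukin-1 receptor antagonist gene Il1rn went up, with 3.28 to 13 CPM (median 7.47) in the livers and 10.3 to 168 CPM (median 47.1) in the tumours, with 11 tumours above the livers. Without T2 and T6, 5 acute phase genes rose. Complement and coagulation genes had 21 lower and 2 higher of 36, and 4 higher without T2 and T6. C8b, of the membrane attack complex, fell by 2.26 ± 0.25, and C9 had every tumour below every liver at -1.45 ± 0.19. Of 17 iron genes 7 fell and 3 rose. Hamp, the iron hormone hepcidin, was picked with its values known and fell by 2.46 ± 0.64, and Id1, a target of BMP signalling, rose by 1.69 ± 0.30. Of 17 clock genes 4 fell and 1 rose. These shares, 23.5% lower and 5.88% higher, lay below the 25.9% and 26.9% over all genes. Nfil3 was at -1.07 ± 0.19 and Nr1d1 at 0.85 ± 0.24, and Nr1d1 overlaps Thra. Bmal1, listed as Arntl, was not called at 0.59 ± 0.31.

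Imprinted genes, of which only the maternal or the paternal copy is active, included several that rose. Of 16 tested 9 rose and 3 fell. Peg3, a zinc finger protein made from the paternal copy, had 1.25 to 4.52 CPM (median 3.24) in the livers and 5.42 to 112 CPM (median 24.8) in the tumours, and Airn, the paternal antisense RNA at Igf2r, 0.158 to 1.07 CPM (median 0.66) in the livers and 1.34 to 8.84 CPM (median 5.24) in the tumours; every tumour lay above every liver for both. Airn lies over Igf2r, and without a stated strand option reads of the pair cannot be told apart where they overlap. Grb10, an inhibitor of insulin and IGF receptors, rose by 2.39 ± 0.44. The long RNA H19 rose by 5.82 ± 1.07, but T13 alone had 701 CPM, the other 11 tumours had 1.23 to 32.8 CPM, and the livers 0.214 to 4.94 CPM (median 0.812). Snrpn fell by 0.85 with 11 tumours below the livers; it overlaps another gene model.

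Kupffer cell markers fell. Kupffer cells are the resident macrophages of the liver sinusoids. Of 15 markers tested 13 fell and 0 rose (median -0.99), and their summed level was 506 to 1481 CPM in livers and 115 to 816 CPM in tumours. With library totals alone 8 fell. Cd163, a haemoglobin scavenger receptor, had 0.649 to 8.36 CPM (median 1.74) in the livers and 0.0318 to 3.52 CPM (median 0.265) in the tumours, Timd4 7.72 to 32.1 CPM (median 12.3) in the livers and 1.11 to 14 CPM (median 3.25) in the tumours, and Folr2 fell by 2.22 on the log2 scale; the groups overlapped for each. The list's median difference from the livers was 0.13 in T2, 0.07 in T6 and -0.15 in T3, and reached -2.63 in T8.

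Lipid-associated macrophages gather around fat in diseased liver. Of 16 markers tested 5 rose and 0 fell, and the 31.2% higher was near the 26.9% over all genes. The members that rose were Cd63, Cd9, Lpl, Fabp5 and Plin2. Of all 16 members, 14 had a log2 fold change above 0 (median 0.45). Which cells made these transcripts was not tested. Cd9 had 11.4 to 25.9 CPM (median 18.4) in the livers and 16.8 to 102 CPM (median 50.5) in the tumours, a log2 fold change of 1.56 ± 0.23 (adjusted p = 7.25e-06), and Cd63 2.46 to 23.3 CPM (median 6.21) in the livers and 9.83 to 238 CPM (median 148) in the tumours. Trem2 had 0.12 ± 0.48 (adjusted p = 0.85), Cd68 -0.53 ± 0.29 (adjusted p = 0.129), and Gpnmb 0.14 ± 0.70, and these 3 did not pass the test. Cd68 was at 7.45 to 25.6 CPM (median 13.3) in the livers and 2.81 to 19.5 CPM (median 10.5) in the tumours, with 5 tumours below the lowest liver. Cd44, a hyaluronan receptor of leukocytes and some epithelia, was not called at 0.10 ± 0.32 (adjusted p = 0.818), with 2.14 to 15.2 CPM (median 5.77) in the livers and 2.9 to 15.2 CPM (median 6.58) in the tumours. For Trem2, at 0.237 to 5.52 CPM (median 0.832) in the livers and 0.368 to 3.85 CPM (median 1.2) in the tumours, the values rest on few reads.

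Lymphocyte and antigen presentation genes showed few differences. Of 16 T and NK cell genes 1 rose and 1 fell: Cd8a, of cytotoxic T cells, rose by 1.27 ± 0.45 with 4 tumours above the highest liver, and Cd4, also made by Kupffer cells, fell by 1.83. Of 8 B and plasma cell genes, Igkc and Jchain rose by 1.40 ± 0.37 and 1.14 ± 0.41 and Ighm fell by 1.44. None of 9 MHC class II genes and none of 4 neutrophil genes was called, with log2 fold changes of -0.24 to 0.61 and -0.36 to 0.26. The median of the MHC class II list differed from the liver median by -0.95 in T5 to 1.11 in T10, and the livers spread more widely, from -2.13 in N13 to 1.46 in N17. Of 22 interferon-stimulated genes 5 rose and 4 fell, with Ifit2 at 1.09 ± 0.25 and Gbp3 at -0.68 ± 0.25, the latter picked with its values known.

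Endothelial markers were taken as 2 lists. Of 13 markers of arterial and capillary endothelium 8 rose and 0 fell (median 0.81), while of 16 sinusoidal markers 3 rose and 4 fell (median -0.38), that is 61.5% higher for the first list, and 18.8% higher and 25% lower for the second, against 26.9% and 25.9% of all genes. Apln, apelin of sprouting tip cells, had 0.0325 to 0.22 CPM (median 0.0974) in the livers and 0.299 to 19.8 CPM (median 1.93) in the tumours, and Sox17, an arterial transcription factor, 0.62 to 1.3 CPM (median 0.948) in the livers and 1.45 to 4.87 CPM (median 3.13) in the tumours, both without overlap. Esm1, another tip cell gene, rose by 4.18 ± 0.58 and Gja5, an arterial gap junction gene that overlaps Gpr89, by 2.44 ± 0.38. Cd34, picked with its values known, rose by 2.43 ± 0.40. In the sinusoid, Rspo3, which sustains pericentral Wnt signalling, fell by 1.27 and Clec4g by 0.82 on the log2 scale, and Flt4 rose by 1.34 ± 0.28. Without T3, 7 sinusoidal genes fell, and with library totals alone 0 did.

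Of 26 stellate cell and matrix genes 8 rose and 4 fell. The basement membrane collagens Col4a1 and Col4a2 rose by 1.45 ± 0.27 and 1.55 ± 0.25, and Sparc, a matrix glycoprotein, by 2.68 ± 0.38, each above the livers in at least 9 tumours. The fibrillar collagens Col1a1, Col1a2 and Col3a1 were not called, at 1.05 ± 0.62, 0.60 ± 0.47 and 0.52 ± 0.44. Ecm1 fell by 1.40, and Lrat, the vitamin A storing enzyme of quiescent stellate cells, by 1.11; Lrat was picked with its values known. Of 9 bile duct markers 3 rose, among them Prom1 and Sox9, whereas the keratin genes Krt7 and Krt19 were not called at -0.31 and -0.54. Few genes of other tissues passed the filter on low counts: 1 of the kidney, 1 of the pancreas, 1 of fat, 4 of red cells and 2 of mesothelium. Fabp4, of fat and of capillaries, rose by 1.59 ± 0.27, while 5 of the 6 fat genes stayed under 1 CPM in every library. Alas2, the red cell enzyme of haem synthesis, fell by 2.05 ± 0.37, while the globin genes Hba-a1, Hbb-bs and Hbb-bt were not called at 0.88 ± 0.44, 0.64 ± 0.41 and 0.52 ± 0.41; Alas2 overlaps Apex2. The shares called in the stellate, bile duct, interferon, unfolded protein response and cholesterol lists lay near or below those over all genes. The part of each of these cell types in the results above was not tested.

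**Figure D4:**
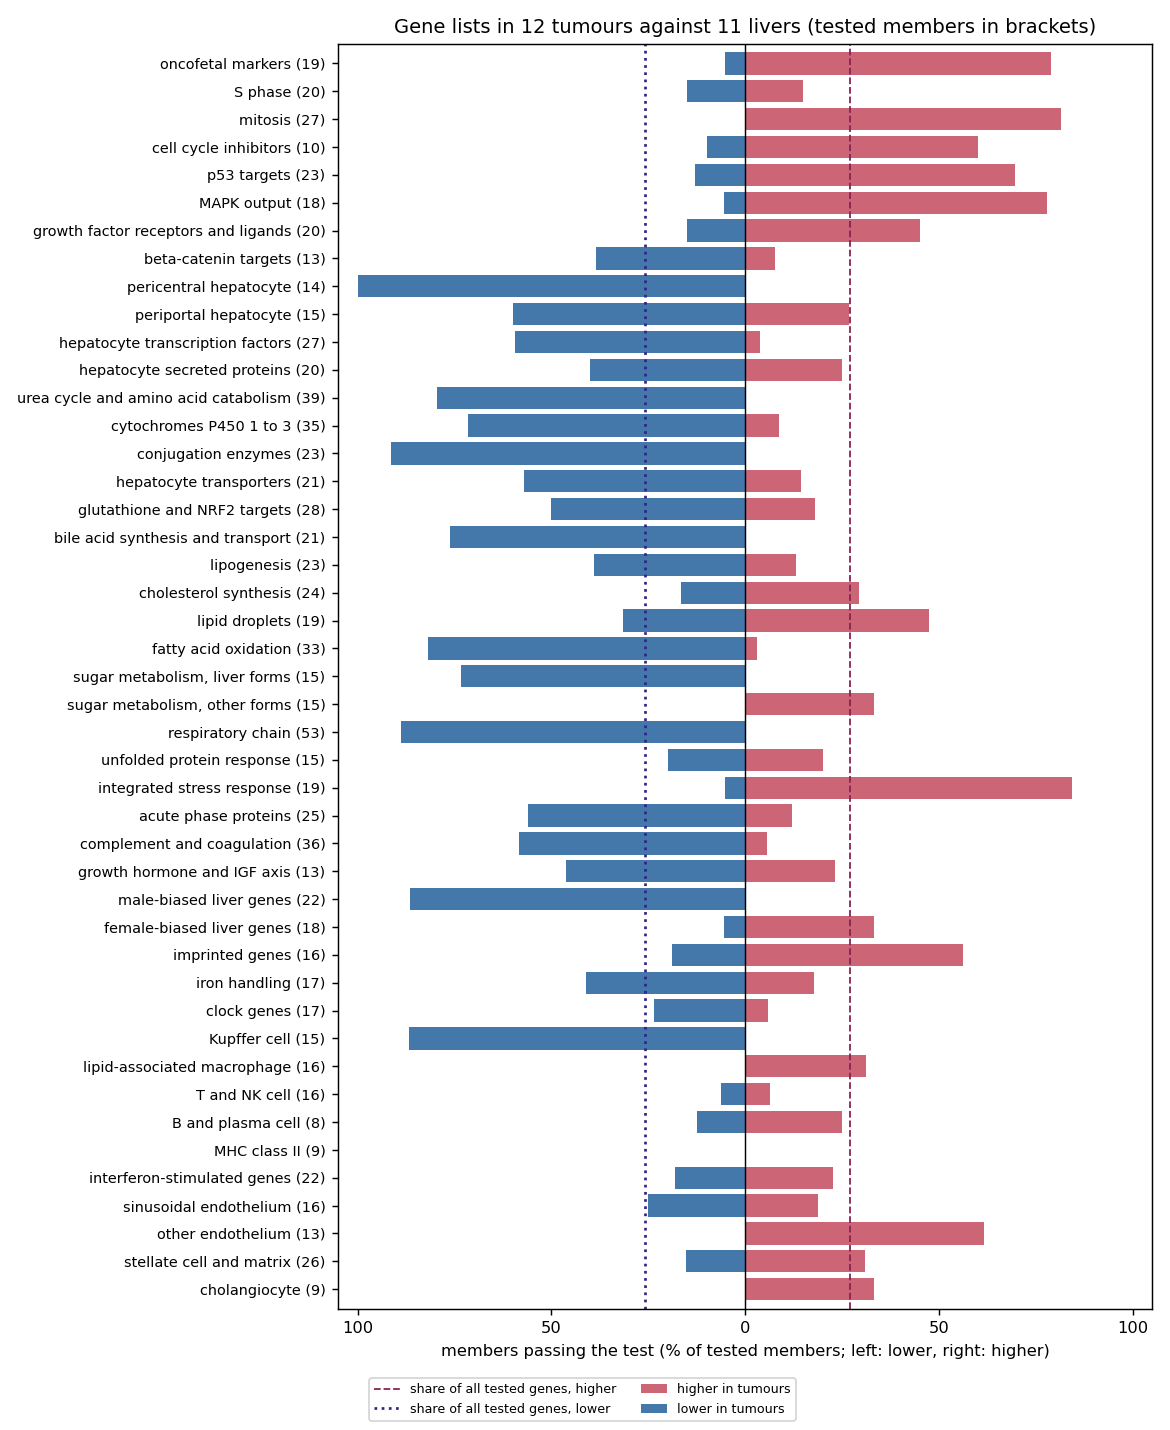
Share of the tested members of each gene list that were called higher (right, %) or lower (left, %) in 12 tumours against 11 livers, for lists with at least 8 tested members, whose number is in brackets. Broken lines mark the shares over all genes tested, 26.9% higher and 25.9% lower. The pericentral bar reaches 100% on the left and the MHC class II list has no bar. The lists were chosen with earlier results of these data known.

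The oncofetal and pericentral lists were nearest to the livers in the same 4 tumours. For the oncofetal markers the median log2 difference from the liver median was 0.38 in T2, 1.81 in T6, 2.21 in T5 and 3.72 in T3, and 3.89 to 5.01 in the other 8. For the pericentral genes it was -0.55 in T2, -1.30 to -1.54 in T3, T5 and T6, and -3.23 to -7.04 in the other 8. Mitosis genes kept this order only in part: T2 was the lowest tumour at 0.21, but T10 had 0.55 and T6 1.05. T14 had 1.78 and T4 2.59. Targets of p53 were highest in T11 at 2.13 and the integrated stress response in T13 at 2.25. These values describe tumours that also entered the calls.

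**Figure D5:**
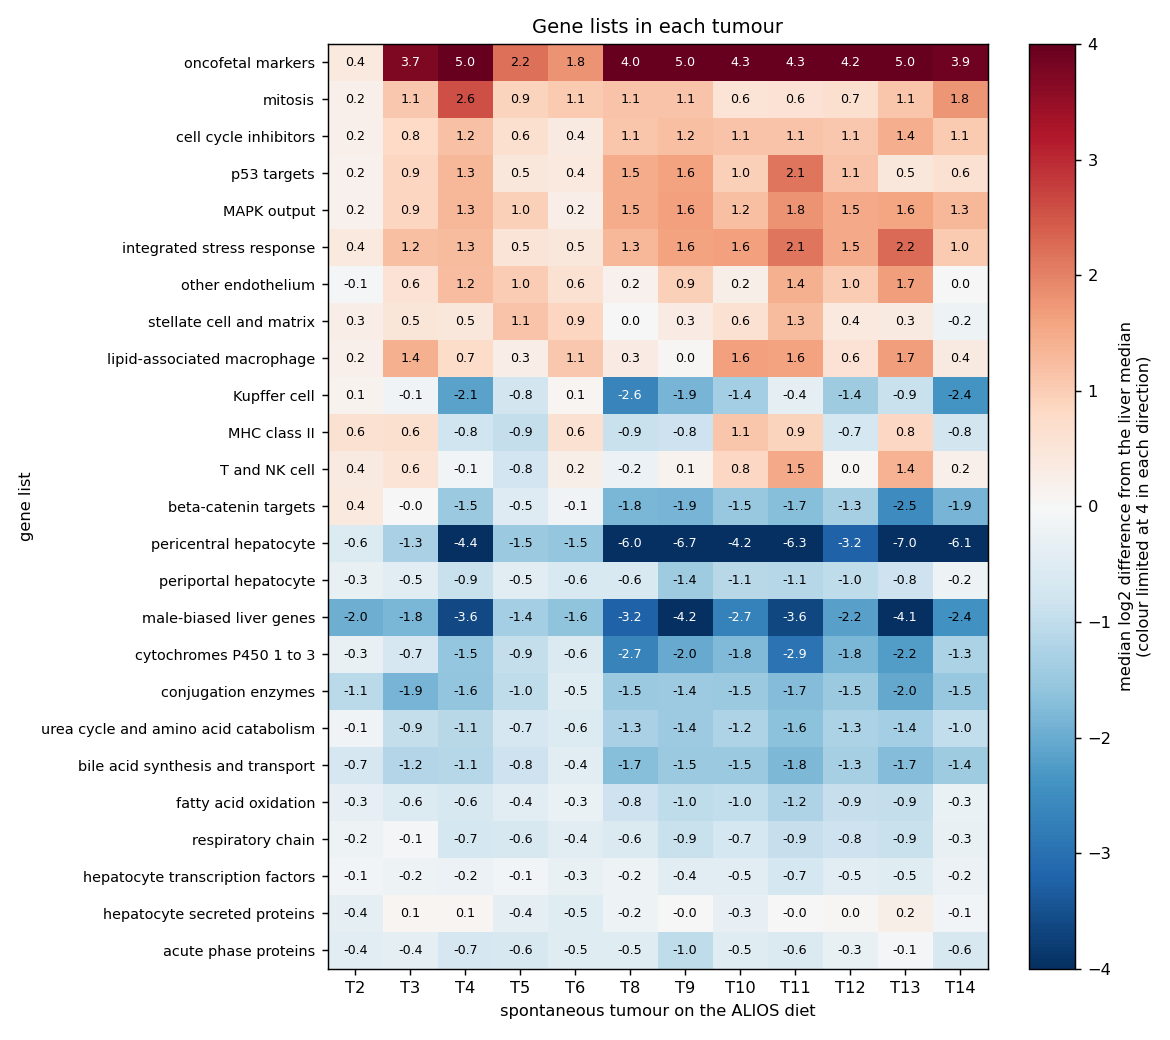
Median over the tested members of 25 gene lists (rows) of the log2 difference between a tumour and the median of the 11 livers, for each of the 12 tumours (columns), from log2 of CPM plus 0.25. The number in each cell is the value and colour stops at 4 in each direction; T2 is pale for most lists, and the pericentral row runs from -0.55 in T2 to -7.04 in T13.

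Across the tumours, Afp, Gpc3 and Igdcc4 varied together, and Mki67 was not detectably related to them. T2 and T6 stood apart for the first 3 markers, so the relation was taken over the other 10 tumours. Over these 10, log2 CPM of Afp and Igdcc4 had Pearson's r = 0.94 (permutation p = 0.00016, adjusted 0.00096 over 6 pairs) and Spearman's rho = 0.93 (permutation p = 0.00049). Gpc3 and Igdcc4 had r = 0.89 (permutation p = 0.0005, adjusted 0.0015) and rho = 0.83 (permutation p = 0.00473). Afp and Gpc3 had r = 0.73 (permutation p = 0.0245, adjusted 0.0491) and rho = 0.73 (permutation p = 0.0205). With the 2 tumours farthest from the median on the x axis left out as well, r was 0.90, 0.69 and 0.72 for these pairs. Mki67 had r = 0.11 with Afp, 0.00 with Gpc3 and 0.19 with Igdcc4 (permutation p = 0.736, 0.992 and 0.604). Over all 12 tumours, T2 and T6 included, r with Mki67 was 0.42, 0.38 and 0.45 (permutation p = 0.157, 0.209 and 0.125). All points share the scaling of their library. The choice of 10 tumours was made after the values were seen.

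Spontaneous tumours were also set against 8 tumours of C3H/He mice on the same diet, harvested at the same 48 weeks, that had been given DEN. Of 14845 genes tested edgeR called none (0.0%), the smallest adjusted p was 0.212, 1079 genes had an unadjusted p under 0.05, and DESeq2 called 86. For Afp the log2 difference of spontaneous minus DEN tumours was -1.38 (95% interval -2.74 to -0.01), for Gpc3 -1.26 (95% interval -2.62 to 0.10), for Igdcc4 0.17 (95% interval -1.12 to 1.45) and for Mki67 -1.03 (95% interval -1.81 to -0.25). The DEN tumours had Afp at 19.4 to 2703 CPM (median 374) and Psat1 at 2.18 to 54.9 CPM (median 25.2). Elovl3, one of the leading genes that fell, had -4.75 (95% interval -7.23 to -2.28) with an adjusted p of 0.229. The intervals reach beyond a 2-fold difference for most of these genes, so the 2 kinds of tumour are not shown to be alike.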

How the data were processed

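RNA was extracted for the authors by a company from tissue shipped in a preservative on dry ice. Stranded mRNA libraries were read as pairs, and the authors mapped them to mm10 with STAR (2-pass mode) and counted reads per Gencode M6 gene with HTSeq (exon features, intersection-nonempty). Tool versions and the strand option are not given in the sources used here. The deposited values are raw counts for 45792 genes; no value column was unmapped. Coordinates and missing symbols came from Gencode M21 (GRCm38, the same assembly as mm10), which lists 45143 of the identifiers.

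Libraries were grouped by their labels. edgeR 4.0.16 (limma 3.58.1, R 4.3.3) was run on the 23 libraries with filterByExpr, TMM scaling and the quasi-likelihood test, without covariates, and calls used Benjamini-Hochberg adjusted p under 0.05. The fit was tested on simulated counts in which a small set of genes changed, equally often up and down, with the same variability in every gene and group. That test cannot judge the scaling, or the unequal spread of tumours and livers, in these data. The study's methods name DESeq2, which was run as an alternative (1.42.0). CPM were scaled by TMM over all 50 libraries. The SE is the size of a difference divided by the square root of the F statistic of its quasi-likelihood test. The test itself gives none. The members and the 51 gene lists were chosen with earlier results of these data known. Named genes were fixed markers, the 10 genes that rose and the 10 that fell furthest without overlap at 5 CPM or more, and in each list the called genes of smallest p; other genes, among them all genes given as not called and Alb, Btc, Egfr, Fabp5, Igf2, Met and Tgfa, were chosen after their values were seen. Permutation tests used 100000 resamples (numpy 2.4.6, scipy 1.17.1, pandas 2.3.3). Pairs of libraries within a group were compared for duplicates, and none differed by less than a chi-square of 16.4 per gene. Reads carry no molecular identifiers, so counting errors understate the error of low genes.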

Additional observations from a re-analysis of the deposited data

Results flagged for a closer look

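Tumour T1 carries an ALIOS diet tumour label but had 23036 CPM of the kidney gene Kap, 3208 CPM of Slc34a1 and 1181 CPM of Umod, and 24.7 CPM of Alb, against at most 4.6 CPM of Kap in any library compared. It entered no comparison above. T7, the single tumour of a mouse on the control diet, had 326 CPM of Afp and 216 CPM of Gpc3, above every ALIOS diet liver and within the range of the 12 tumours. With 1 such tumour, no comparison by diet was made.

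Among the 8 DEN tumours on the ALIOS diet, T23 stood apart with the lowest log2 CPM of Afp (4.28) and of Gpc3 (2.81), and T24 with the highest of Cd44 (6.66) and of Trem2 (3.91). Each lay farther from its nearest neighbour than Dixon's limit of 0.526 of the group's range. The 9 fixed markers were searched in this group. For each marker chance passes the limit about 1 time in 20, so over all 9 a flag by chance is more likely than that. The cause was not tested.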

How the results depend on the processing

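Leaving out each library in turn gave 3598 to 4323 genes higher and 2965 to 3964 lower; without T2 and T6, chosen after seeing the data, 4553 and 3712. DESeq2 called 4945 and 3911, limma with quality weights 4214 and 4574, and the fit with T1 4059 and 2624. Library totals alone gave 5526 and 2059, and a 2-fold minimum 1249 and 741. The library numbers 13 and 14 are serial numbers that both groups happen to share. A fit of N13, N14, T13 and T14 with the replicate block called 203 higher and 176 lower, and without the block 521 and 569; the deviations of same-numbered libraries correlated at -0.205 and -0.0693, and the numbers were not taken as pairs. The sign changed for Cd44, which was not called, with limma and quality weights (-0.03), without T2 and T6 (-0.03) and without T11 or N13 (over single libraries left out -0.03 to 0.27), for Trem2, also not called, without T10 or T3 (over single libraries left out -0.03 to 0.53), and for Etv1 with T1 (1.93). With T1, Afp and Mki67, and Igdcc4 and Mki67, both correlated at 0.66 and passed the test. DESeq2 called 86 genes between DEN and spontaneous tumours where edgeR called none. The cause of these changes was not tested. Genes under about 1 CPM rest on few reads.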
